A study of Mus musculus with 8 samples.

Results

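The small leucine-rich proteoglycans of the dermis were followed here through 9 genes chosen by symbol: *Dcn*, *Bgn*, *Aspn*, *Lum*, *Fmod*, *Prelp*, *Omd*, *Ogn* and *Podn*. They are 9 of the 18193 genes that the array names, and 20 of its 45037 probe sets carry one of these symbols alone. Where a gene had several, the brightest one on average was used and the others served as a check. All 9 passed the filter that left out the 30% of genes with the lowest mean level, which kept 12735 genes.

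Dorsal skin was taken from female mice of the hairless strain Hos:HR-1 when they were 21 weeks old. For the last 12 weeks the mice of 4 arrays had eaten the purified diet AIN-93G with fish-scale collagen hydrolysate, collagen cut to peptides. It was added at 2 g to each 100 g of the diet. The mice of the other 4 had eaten AIN-93G alone, the control diet, and both groups shared strain, sex, age and housing. Of 16 mice, 8 on each diet, these 8 arrays are used here, and the labels call them biological replicates, say that the skin was powdered and give no batch.

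Proteins of this family are short chains of leucine-rich repeats that curve around collagen fibrils in the space between cells. Most carry glycosaminoglycan chains, long sulfated sugars that hold water and keep fibrils apart. They set the width and spacing of collagen fibrils, and several also bind growth factors such as TGF-beta. Dermal fibroblasts make most of those found in skin, and mice that lack decorin have fragile skin with uneven fibrils.

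The values were judged from their range to be on a log2 scale, and arrays differed very little on it: over 8 arrays, the SD of the median probe set was 8.66e-06. The summarization method is unknown here, and such differences cannot be read as fold changes of RNA. Values are therefore given as deviations from the mean of the 8 arrays in millionths of a log2 unit. Diet differences are those of the collagen diet minus the control diet, also divided by the gene's pooled SD within the diets (SD units). Different probe sets respond differently to the same amount of RNA, so levels were not ranked between members. The deposited log2 level averaged over the 8 arrays was 13.53 for *Dcn*, 11.57 for *Bgn*, 8.69 for *Aspn*, 11.19 for *Lum*, 7.18 for *Fmod*, 8.66 for *Prelp*, 7.71 for *Omd*, 10.07 for *Ogn* and 8.53 for *Podn*. At 2 decimals these levels hide the differences between arrays, which is why the deviations are given for each gene.

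None of the members passed the comparison of the diets. In limma's moderated test 0 of 9 members had an adjusted p below 0.05, as had 0 of the 12735 genes tested (0%), and the members' adjusted p lay between 0.923 and 0.999. At an unadjusted p below 0.05 stood 1 member, asporin, against 682 genes or 5.36% of all tested, and the higher ones alone made up 1.21%. Without moderation of the variances the count over all genes was also 0, with 673 at an unadjusted p below 0.05. In 0 of 9 members did the 4 collagen-diet arrays lie clear of the 4 control-diet arrays, against 3.31% of all genes.

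Of the 9 members, 7 had a higher mean on the collagen diet and 2 a lower one, with a median difference of 0.39 SD, against 45.5% higher and a median of -0.08 SD over all genes. This split depended on the scaling. Quartiles of the values differed between arrays by up to 0.0017 log2 units, and median centring moves all genes of an array by the same amount. After quantile normalization 4 members were higher and 4 lower, with *Dcn* equal in all arrays and 29.5% of all genes higher. After centring each array on its median 5 were higher and 4 lower, with 13.5% of all genes higher. The members' median was 0.01 SD in the first of these settings and 0.02 SD in the second, against -0.15 SD over all genes in both.

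Asporin and biglycan are relatives of decorin, and in SD units *Aspn* had the largest difference of the family on the values as deposited. In millionths those of *Prelp* and *Lum* were larger, and in SD units *Lum* was above *Aspn* after median centring (0.78 against 0.51 SD). Asporin binds collagen and TGF-beta and carries a stretch of aspartic acid residues in place of a sugar chain. *Aspn* (probe set 1448421_s_at) stood at 76.0, 23.8, 75.8 and 59.3 millionths in collagen-diet replicates 1 to 4, against -49.7, -173.5, 58.9 and -70.5 millionths in control-diet replicates 1 to 4. All 4 collagen-diet arrays lay above 3 of the 4 control-diet arrays, and control replicate 3 lay among the collagen-diet values. The mean was 58.7 ± 24.6 millionths on the collagen diet and -58.7 ± 95.3 millionths on the control diet (SD, n = 4 each).

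The difference of *Aspn* was 117.4 ± 46.9 millionths (SE), or 1.69 SD with a 95% interval of 0.07 to 3.30 SD. Its unadjusted p was 0.0428 and its adjusted p 0.923 in limma, and an exact two-sided permutation test over the 70 splits of the arrays gave p = 0.0571, where 0.0286 is the smallest it can give. The second *Aspn* probe set (1416652_at) stood at 141.8, 162.8, 829.9 and 287.3 millionths on the collagen diet, against -690.8, -594.9, 187.9 and -323.9 millionths on the control diet. Again control replicate 3 alone reached the collagen-diet range. This probe set differed by 1.97 SD, with an adjusted p of 0.816 in the limma fit over all 31526 probe sets above the filter, where 0% were called. Both *Aspn* probe sets, and none other of the 20, had an unadjusted p below 0.05 there, against 5.58% of all probe sets and 1.57% in the higher direction. The difference of *Aspn* was 3.40 SD without control replicate 3 (adjusted p = 0.811 in limma), 0.51 SD after median centring and 0.14 SD after quantile normalization.

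*Dcn* encodes decorin, the best known member in skin, which carries 1 chondroitin or dermatan sulfate chain. Its main probe set (1449368_at) stood at 4.2, 0.5, 15.0 and -3.7 millionths in collagen-diet replicates 1 to 4, against -17.2, -17.3, 2.9 and 15.7 millionths in control-diet replicates 1 to 4. Control replicates 1 and 2 were the lowest arrays and control replicate 4 the highest, so that the collagen-diet values lay within the control range. The difference was 8.0 ± 8.6 millionths (SE), or 0.63 SD (95% interval -0.99 to 2.24 SD). The second probe set (1441506_at) differed by 0.49 SD, with the same 2 lowest arrays and the same highest one.

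*Bgn* encodes biglycan, which carries glycosaminoglycan chains near its start and can also signal through Toll-like receptors once freed from the matrix. Its main probe set (1416405_at) stood at -202.1, -38.1, 337.7 and -127.5 millionths on the collagen diet, against -230.3, -177.9, 364.5 and 73.7 millionths on the control diet. Replicate 3 was the highest array of either diet and replicate 1 the lowest of either. The difference was -15.0 ± 172.8 millionths (SE), or -0.06 SD (95% interval -1.67 to 1.55 SD), and the other probe sets differed by -0.12 SD (1448323_a_at) and -0.18 SD (1437889_x_at). All 3 probe sets ordered collagen replicate 3 and control replicate 3 as the highest arrays.

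Lumican, fibromodulin, PRELP and osteoadherin form a second branch, whose sugar chains, where present, are of the keratan sulfate type. *Lum* (1423607_at) encodes lumican, which limits the sideways growth of collagen fibrils. It stood at -325.5, 4.0, 493.8 and 392.5 millionths on the collagen diet, against -491.0, -253.3, 253.1 and -73.7 millionths on the control diet. Collagen replicates 3 and 4 lay above all control-diet arrays, while collagen replicate 1 was below all but control replicate 1. The difference was 282.4 ± 233.2 millionths (SE), or 0.82 SD (95% interval -0.80 to 2.43 SD).

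*Fmod* encodes fibromodulin, which steers fibril assembly and the crosslinking of collagen and is abundant in tendon. Its main probe set (1415939_at) stood at -16.2, -6.1, 55.4 and 20.2 millionths on the collagen diet, against -16.7, -6.5, -29.7 and -0.3 millionths on the control diet. Collagen replicates 3 and 4 lay above all control-diet arrays and the other 2 fell within the control range. The difference was 26.6 ± 16.4 millionths (SE), or 1.09 SD (95% interval -0.52 to 2.71 SD). All 5 further *Fmod* probe sets also differed upwards, by 0.21 to 0.91 SD, and each placed collagen replicate 3 as its highest or second highest array. Of these, 1438966_x_at, 1437324_x_at and 1437718_x_at had low mean levels of 6.62, 6.55 and 6.53 (log2). The related gene *Nyx*, at 6.62, fell below the level filter for genes.

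*Prelp* encodes PRELP, whose basic start binds heparin and which links basement membranes to collagen beneath. Its main probe set (1416321_s_at) stood at 333.7, -812.4, 1274.0 and 105.2 millionths on the collagen diet, against -1413.8, -1082.6, -452.4 and 2048.3 millionths on the control diet. Control replicate 4 was far above the other 3 control-diet arrays and set the top of the range. The difference was 450.3 ± 850.7 millionths (SE), or 0.36 SD with all arrays and 1.65 SD without control replicate 4. The second probe set (1416322_at) went the other way at -0.63 SD, also with control replicate 4 highest.

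*Omd* (1418745_at) encodes osteoadherin, a keratan sulfate proteoglycan best known from bone. It stood at -98.6, 111.3, -28.9 and -13.1 millionths on the collagen diet, against -188.0, -228.8, 359.8 and 86.4 millionths on the control diet. The collagen-diet values all lay inside the wider control range, whose highest array was again replicate 3. The difference was -14.7 ± 136.7 millionths (SE), or -0.07 SD (95% interval -1.68 to 1.54 SD).

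*Ogn* and *Podn* stand on branches of their own. *Ogn* encodes osteoglycin, also called mimecan, and its main probe set (1419663_at) stood at -154.5, 155.1, 188.0 and -159.5 millionths on the collagen diet, against -33.2, -19.3, 221.9 and -198.6 millionths on the control diet. Arrays of both diets reached both ends of the range, and the difference was 14.6 ± 122.5 millionths (SE), or 0.08 SD (95% interval -1.53 to 1.69 SD). The second probe set (1419662_at) differed by 0.01 SD. *Podn* (1435180_at) encodes podocan, a longer relative that binds collagen type I. It stood at 15.9, -25.1, 111.3 and -46.2 millionths on the collagen diet, against -70.3, 92.2, -40.7 and -37.2 millionths on the control diet. Collagen replicate 3 and control replicate 2 stood above the rest, and the difference was 28.0 ± 47.9 millionths (SE), or 0.39 SD (95% interval -1.22 to 2.01 SD).

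**Figure D1:**
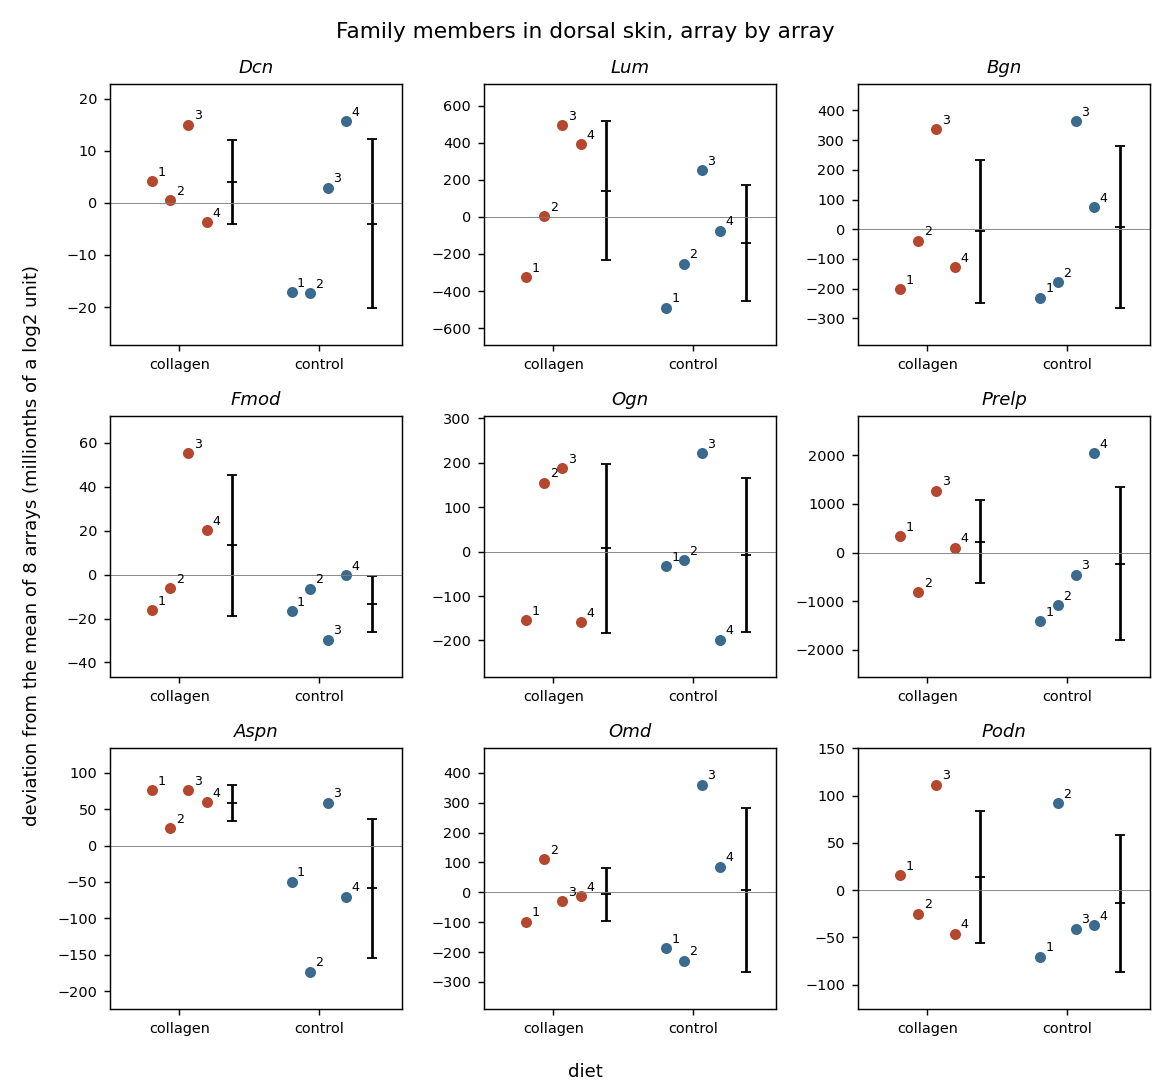
Deviation from the mean of the 8 arrays, in millionths of a log2 unit on the vertical axis, for the main probe set of each of the 9 genes, with collagen-diet arrays (red, left) and control-diet arrays (blue, right) numbered by replicate. Black bars are the mean ± SD of 4 arrays, vertical scales differ between genes, and the diets overlap in every panel, least in *Aspn*, where only control replicate 3 reaches the collagen-diet arrays.

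The intervals were wide for all 9 members, and that of *Aspn* alone did not reach 0 before adjustment over all genes. The unadjusted p of *Aspn* in limma was 0.108 with array weights and 0.0552 to 0.0901 in 7 of the 8 fits without a single array, and 0.0543 without moderation. It was 0.00396 in the remaining fit, without control replicate 3, 0.031 with replicate number as a block and 0.0209 with the mean of the gene's probe sets. After median centring this p in limma was 0.48, and after quantile normalization 0.835. A p that misses the threshold does not show that the diets had the same level. For *Bgn*, *Omd* and *Ogn*, the members closest to 0, the 95% intervals still reached -1.67, -1.68 and 1.69 SD. Counted singly, 15 of the 20 probe sets were higher and 5 lower, against 47.6% higher over all. Of the 11 further probe sets, 10 had the sign of the main one, the exception being that of *Prelp*. *Fmod* supplies more probe sets to both counts than any other member, all of them higher. Probe sets of 1 gene read the same arrays, so neither count is one of independent genes. In the 6 members with more than 1 probe set, after removal of the diet means, the main and the other probe sets correlated at r of 0.66 (*Aspn*) to 0.98 (*Bgn*). With exact permutation within diets and adjustment over these 11 relations, 8 had an adjusted p below 0.05 by r and 5 by rho, and the *Aspn* pair had neither (r = 0.66, rho = 0.43, exact p = 0.149 for r and 0.406 for rho). Without the 2 arrays farthest from the median the *Aspn* pair and the *Prelp* pair each had r = 0.26, and *Bgn* with 1437889_x_at had 0.41.

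**Figure D2:**
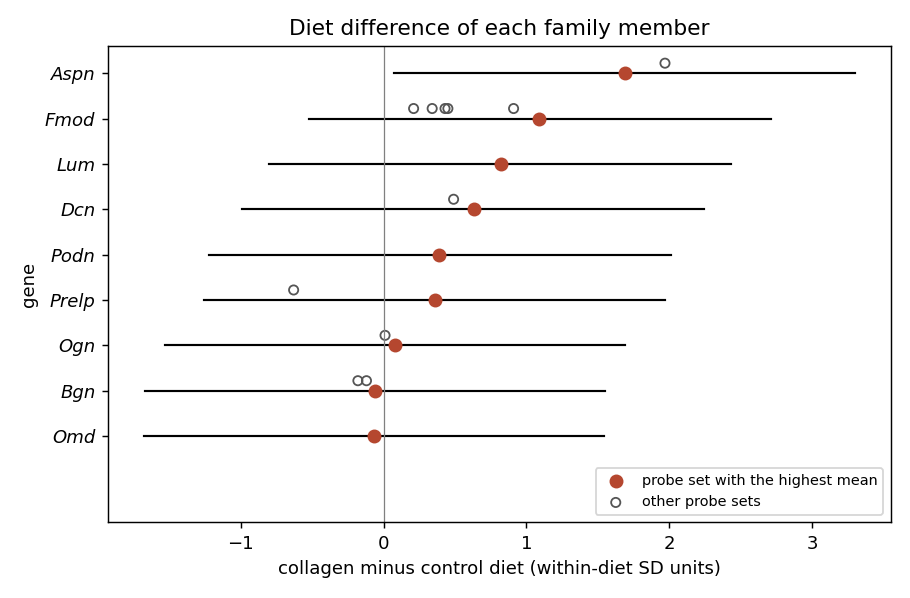
Diet difference of the 9 genes, collagen minus control, in within-diet SD units (horizontal axis), with 95% intervals from the limma fit as lines (n = 4 arrays each). Filled points are the main probe sets and open circles the other probe sets; the interval excludes 0 only for *Aspn* at 1.69 SD, and 0 of the genes pass after adjustment.

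Members of this family lie side by side in the mouse genome, in 3 groups that the reference gene table orders by protein-coding gene. On chromosome 13 *Aspn* is followed by *Omd* and *Ogn*, on chromosome 10 *Dcn* is followed by *Lum* and on chromosome 1 *Prelp* is followed by *Fmod*. *Bgn* on chromosome X and *Podn* on chromosome 4 have no member beside them. The diet differences of the chromosome 13 neighbours were 1.69 SD for *Aspn*, -0.07 SD for *Omd* and 0.08 SD for *Ogn*, with overlapping intervals, and were not tested against each other. The stretches of 250 bases before the RefSeq start of these 3 genes are shown because they lie side by side and include *Aspn*, that of *Fmod* because its difference came second in SD units, and that of *Bgn* because it varied most closely with the other members. All 5 are read 5′ to 3′ on the plus strand of GRCm38.p6, and 7 of the 9 members were found in the promoter table. Capitals mark matches on either strand to 4 motifs: TATAAA (the TATA box), and CCAAT (the CCAAT box), and GGGCGG (the GC box), and TGANTCA (the AP-1 site).
Aspn, chr13:49544193-49544442: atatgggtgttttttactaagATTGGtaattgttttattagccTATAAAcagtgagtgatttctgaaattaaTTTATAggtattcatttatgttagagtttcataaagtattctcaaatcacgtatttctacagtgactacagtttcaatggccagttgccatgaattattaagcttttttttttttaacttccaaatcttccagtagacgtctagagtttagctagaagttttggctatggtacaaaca
Omd, chr13:49582212-49582461: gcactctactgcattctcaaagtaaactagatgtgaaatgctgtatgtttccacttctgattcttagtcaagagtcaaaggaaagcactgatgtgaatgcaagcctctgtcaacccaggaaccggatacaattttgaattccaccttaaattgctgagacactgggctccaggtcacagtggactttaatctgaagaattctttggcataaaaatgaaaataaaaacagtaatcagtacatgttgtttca
Ogn, chr13:49607765-49608014: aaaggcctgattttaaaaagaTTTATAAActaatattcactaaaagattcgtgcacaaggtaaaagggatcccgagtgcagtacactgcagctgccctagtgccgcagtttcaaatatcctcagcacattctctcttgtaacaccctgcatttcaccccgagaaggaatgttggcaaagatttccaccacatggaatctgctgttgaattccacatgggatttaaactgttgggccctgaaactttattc
Fmod, chr1:134037004-134037253: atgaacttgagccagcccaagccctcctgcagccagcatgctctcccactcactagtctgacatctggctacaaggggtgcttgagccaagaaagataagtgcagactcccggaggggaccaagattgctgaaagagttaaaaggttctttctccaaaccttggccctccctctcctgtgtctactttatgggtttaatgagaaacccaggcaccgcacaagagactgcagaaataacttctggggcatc
Bgn, chrX:73483351-73483600: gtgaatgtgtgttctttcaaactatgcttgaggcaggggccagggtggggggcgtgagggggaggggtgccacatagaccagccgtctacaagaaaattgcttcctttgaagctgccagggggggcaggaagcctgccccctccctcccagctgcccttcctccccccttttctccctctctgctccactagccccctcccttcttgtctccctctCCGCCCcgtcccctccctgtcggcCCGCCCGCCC
The *Aspn* window held TATAAA once on each strand, 207 and 178 bases before the start, and CCAAT on the minus strand 229 bases before it. The *Ogn* window held TATAAA on both strands in 1 overlapping run that began 229 bases before the start. The *Bgn* window held 3 copies of GGGCGG on the minus strand, 34, 10 and 6 bases before the start, the last 2 of them overlapping. The windows of *Omd* and *Fmod* held none of these letters, and TGANTCA was in none of the 5. Of 32851 windows of the same length, 12.4% held TATAAA, 33.8% CCAAT, 32.7% GGGCGG and 6.75% TGANTCA. The matches found also occur in many other promoters and are given as a description. Whether any of them acts at its position was not tested.

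From array to array within a diet, most members leaned the same way without any single pair passing the test. Among the 36 pairs of members the correlation of deviations from the diet mean over the 8 arrays was above 0 in 31, with a median r of 0.40 and a median rho of 0.26, while the median r over all pairs of the 12735 genes was 0.01. The exact permutation of arrays within diets cannot give a p below 0.0017. After adjustment over the 36 pairs 0 passed, with 3 at an unadjusted p below 0.05 for r and 2 for rho. The members share arrays, tissue and diet means, and a pair's r from 8 arrays is imprecise.

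The closest pair was *Dcn* with *Prelp*, at r = 0.89 and rho = 0.79 (exact permutation p = 0.0104 for r and 0.033 for rho, adjusted p = 0.375 for r and 0.594 for rho). Next stood *Lum* with *Bgn*, at r = 0.82 and rho = 0.86 (exact permutation p = 0.0226 for r and 0.0139 for rho, adjusted p = 0.406 and 0.5). *Bgn* with *Omd* had r = 0.73 and rho = 0.76 (exact permutation p = 0.0451 for r and 0.104 for rho, adjusted p = 0.542 and 0.852). Without the 2 arrays farthest from the median of the first gene, r was 0.59, 0.65 and 0.97 in these 3 pairs. *Bgn* had the highest median r with the other 8 members, at 0.63, and *Podn* the lowest, at 0.14. *Fmod* leaned away from *Aspn* and *Omd*, at r = -0.20 and -0.21, and *Podn* from the same 2 genes, at -0.42 and -0.37. *Ogn* leaned away from *Prelp*, at -0.30. Without control replicates 2 and 3, *Podn* had r = 0.48 with *Aspn* and -0.07 with *Omd*. The *Fmod* pairs had -0.50 and -0.53 without collagen replicates 1 and 3, and *Ogn* with *Prelp* had -0.72 without replicate 3 of each diet.

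The pairs of genome neighbours were not tested against the other pairs. The 4 pairs that lie side by side had r = 0.47 for *Dcn* and *Lum*, 0.50 for *Fmod* and *Prelp*, 0.71 for *Aspn* and *Omd* and 0.46 for *Ogn* and *Omd*, with rho of 0.43, 0.50, 0.24 and 0.24. None of these passed (exact permutation p for r of 0.252, 0.123, 0.295 and 0.267, adjusted p = 0.634 to 0.672). The r of *Aspn* and *Omd* was -0.81 without control replicates 2 and 3, so it rested on these 2 arrays. Over all pairs the median r without the 2 farthest arrays of each was 0.18, with 24 of 36 above 0.

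**Figure D3:**
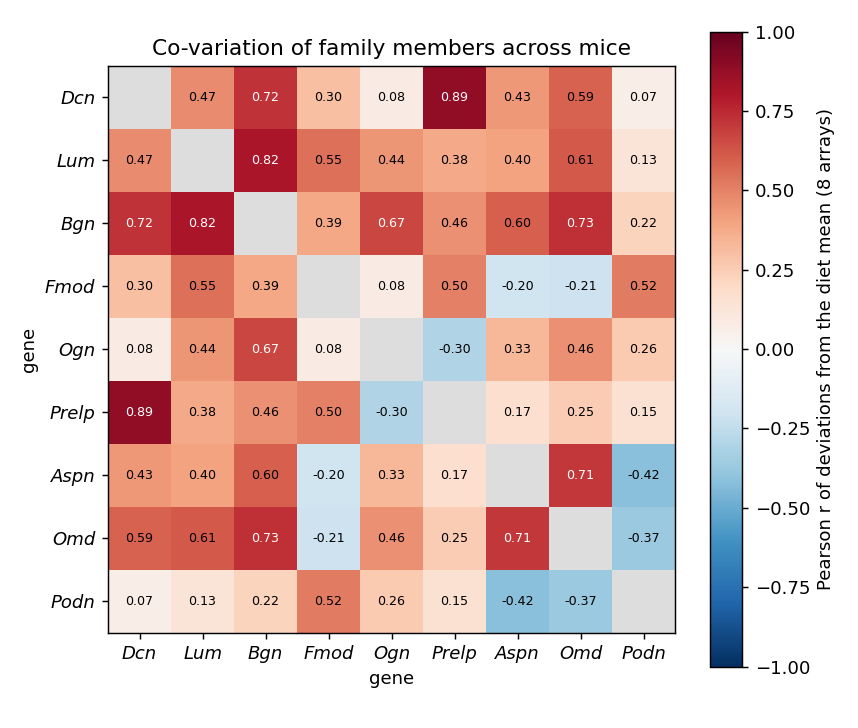
Pearson r between the 9 genes over 8 arrays after removal of each diet's mean, as colour and number (red above 0, blue below 0, grey diagonal left empty). *Dcn* with *Prelp* at 0.89 and *Lum* with *Bgn* at 0.82 are the closest pairs, and *Podn* with *Aspn* at -0.42 lies lowest.

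Leaving out single arrays moved these values. The mean deviation of the 9 members in SD units was -0.20, 0.04, 1.19 and 0.06 in collagen-diet replicates 1 to 4, against -0.92, -0.70, 0.45 and 0.08 in control-diet replicates 1 to 4. Replicate 3 was thus the highest array of each diet. Without collagen replicate 3 the members' median difference was 0.08 SD with 5 of 9 higher, and without control replicate 4 it was 0.81 SD with 8 of 9 higher. The median r between members was 0.28 without collagen replicate 3 and 0.55 without control replicate 4.

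Markers of fibroblasts and genes of the collagen fibril stood high in the same 2 arrays. The 12 fibroblast markers, all above the level filter, had mean deviations of -0.65, -0.64, 1.01 and -0.15 SD on the collagen diet, against -0.41, -0.32, 0.85 and 0.31 SD on the control diet. The 16 fibrillar collagens and fibril partners tested had -0.82, -0.23, 1.45 and -0.33 SD on the collagen diet, against -0.43, -0.46, 0.93 and -0.11 SD on the control diet. In whole skin, fewer cells of a type and less RNA per cell cannot be told apart. The level of *Gapdh* at the 3' end minus that at the 5' end, a measure of RNA and labelling quality, deviated by 1201.6, 268.6, -982.0 and -911.6 millionths on the collagen diet, against 474.7, -432.7, -100.1 and 481.5 millionths on the control diet. It was lowest in collagen replicate 3 and highest in collagen replicate 1. The same measure of *Actb* deviated by 5.5, 3.5, -2.1 and -3.0 millionths on the collagen diet, against 2.0, -5.4, -2.7 and 2.2 millionths on the control diet, and was lowest in control replicate 2. The 18S level was 10.32 to 10.38 on the collagen diet and 10.31 to 10.40 on the control diet (log2). The part of these measures in the members' values was not tested.

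**Figure D4:**
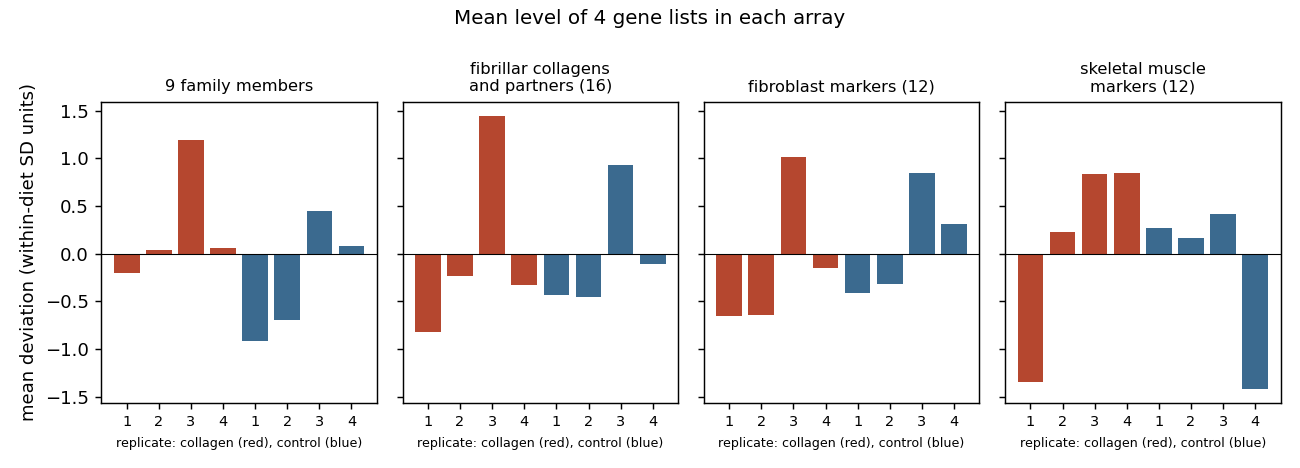
Mean deviation from the 8-array mean in units of the SD within diets (vertical axis) of 4 gene lists in each array, collagen-diet replicates 1 to 4 in red, then control-diet replicates 1 to 4 in blue. Collagen replicate 3 and control replicate 3 are highest in their diet for the family (1.19 and 0.45), the fibril genes and the fibroblast markers, while collagen replicate 1 and control replicate 4 are low in skeletal muscle markers.

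Collagen replicate 1 and control replicate 4 stood apart by skeletal muscle markers, at -1.35 and -1.42 SD, while the other arrays lay between 0.16 and 0.85 SD. These 12 markers, genes of the muscle that lies under mouse skin, were all above the filter. Without both arrays 9 of 9 members were higher on the collagen diet with a median of 1.28 SD, against 44.5% of all genes and a median of -0.12 SD, and 0 members passed. *Fmod* then had the largest difference, 1.75 SD, with an unadjusted p of 0.0743 and an adjusted p of 0.99 in limma with 3 arrays on each diet. *Prelp* stood at 1.44 SD, *Lum* at 1.42 SD, *Dcn* at 1.34 SD and *Aspn* at 1.28 SD, and *Ogn* at 0.03 SD. Of the 6 markers of tendon and fascia cells, which make much fibromodulin, 4 were below the filter, and *Tnmd* and *Thbs4* differed by 0.56 and 0.30 SD. Of 6 cartilage markers 5 were below it, among them *Col2a1*, *Matn1* and *Acan*. Keratinocyte markers, which define epidermis, were above the filter in 10 of 10, with mean deviations of -0.43 to 0.73 SD on the collagen diet and -0.74 to 0.13 SD on the control diet. By diet, fibroblast markers had a higher mean in 4 of 12 and a lower one in 8 (median -0.17 SD). Skeletal muscle markers were higher in 12 of 12 (median 0.27 SD), endothelial markers in 6 of 6 (0.44 SD), macrophage markers in 6 of 7 (0.35 SD), keratinocyte markers in 6 of 10 (0.30 SD), smooth muscle markers in 5 of 7 (0.22 SD) and adipocyte markers in 5 of 8 (0.23 SD). None of these markers passed in limma after adjustment. At an unadjusted p below 0.05 stood *Lyz2* of macrophages (2.15 SD), *Acta2* and *Smtn* of smooth muscle (2.43 and -2.23 SD) and *Dsp* and *Krt77* of keratinocytes (1.82 and 1.64 SD). Over all genes tested this share was 5.36%. For *Lyz2* and *Acta2* the diets did not overlap, as for 3.31% of all genes. The part of these markers in the members' differences was not tested.

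Genes whose pattern over the arrays was nearest to the members were searched among all others tested, with Pearson r of deviations from the diet mean over 8 arrays as the measure. To the mean of the 9 members the nearest were *Cdk18* (r = 0.973), a kinase, *Apbb3* (0.970), an adaptor protein, *Htra1* (0.970), a secreted protease that cuts matrix proteins, *Selenon* (0.968), a selenoprotein of the endoplasmic reticulum, and *Svep1* (0.964), a large matrix protein. Of the single members, *Bgn* was nearest to *Gpr153* (0.976) and to *Col6a1* (0.966), a chain of collagen type VI. *Dcn* was nearest to *Arhgef1* (0.978) and *Plod3* (0.966), a lysyl hydroxylase of collagen, and *Ogn* to *Gpc3* (0.958), a cell surface proteoglycan, and *Gas7* (0.955). *Aspn* was nearest to *Tapbp* (0.972) and *Tap1* (0.963), both of antigen loading, and *Omd* to *Aurkb* (0.981), a mitotic kinase, and *Aldh1l1* (0.973). *Lum* was nearest to *Uqcr10* (0.996) and *Mkrn2* (0.979), *Fmod* to *Orai1* (0.994) and *Ciao3* (0.982), *Prelp* to *Phlda3* (0.990) and *Mapk8ip3* (0.986) and *Podn* to *Acd* (0.989) and *Arhgap39* (0.983). These genes were picked for the highest r among 12735 over 8 arrays, so the values describe likeness in these arrays only.

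The genes that build the sugar chains of the family did not pass either. Of 28 listed, 23 were tested: 11 had a higher mean, 12 a lower one, their median was -0.08 SD and 0 were past the adjusted threshold in limma. The smallest p belonged to *B4galt7* (1426304_x_at), a galactosyltransferase of the linker that joins the chain to the protein, at -2.38 SD with an adjusted p of 0.944 in limma, and its diets did not overlap, as for 3.31% of all genes. *B3gat3*, which completes that linker, differed by -1.38 SD and *Chst14*, a sulfotransferase of dermatan sulfate, by -1.34 SD. None of the 23 had an unadjusted p below 0.05, against 5.36% of all genes.

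Collagens and other partners of the family on the fibril were split, 9 of 16 having a higher mean and 7 a lower one (median 0.09 SD). *Tnxb*, tenascin X, differed by -0.96 SD, *Col3a1* by 0.67 SD and *Col5a2*, a chain of the collagen type V that starts fibrils, by 0.65 SD. Growth factors and receptors that family members bind numbered 6 higher and 10 lower among 16 (median -0.18 SD), led by *Tgfb3* at -1.46 SD, *Bmp2* at -1.40 SD and *Met*, the receptor of hepatocyte growth factor, at -1.27 SD. Neither list held a gene at an unadjusted p below 0.05, against 5.36% of all genes.

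The list of proteases that cut members of the family also holds *Pcolce*, which aids such a protease and is not one itself. Of its 14 genes 8 were tested, *Pcolce* among them, of which 2 had a higher and 6 a lower mean (median -0.42 SD). *Mmp9*, gelatinase B, was the 1 gene of this list at an unadjusted p below 0.05 (0.0387, adjusted p = 0.917 in limma), against 5.36% of all genes. It stood at 1.76 SD, with *Adamts5* at -0.73 SD and *Mmp2* at -0.59 SD. Of 13 other proteoglycans tested, 5 had a higher mean and 8 a lower one (median -0.19 SD). *Gpc4* (1421088_at), glypican 4 of the cell surface, stood at -2.31 SD and the diets did not overlap, as for 3.31% of all genes (unadjusted p of 0.0121 and adjusted p of 0.779 in limma). The syndecans *Sdc1* and *Sdc4* differed by -1.18 and -0.94 SD.

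Relatives of the family beyond the 9 members gave little to compare. Of 9 listed, 7 were named on the array, and *Kera*, *Epyc*, *Optc*, *Nyx*, *Chad* and *Ecm2* lay below the level filter, among them the chromosomal neighbours of *Lum*, *Prelp* and *Aspn*. The 1 tested, *Chadl*, a relative known from cartilage, differed by -1.07 SD with an adjusted p of 0.999 in limma.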

How the data were processed

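Expression was measured in dorsal skin on 8 arrays, 4 on each diet, and groups follow the sample titles. An Affymetrix kit for labelling at the 3' end started from 200 ng of total RNA, per the labels' protocols. The authors deposited 1 column of log2 values per array, whose unit was judged from their range, and the submitters' processing notes name R 2.7.2. How they were summarized or normalized: not given in the sources used here. Precision rests on the number of arrays and their spread, since no background signal was at hand.

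Of 45101 probe sets 64 controls were set aside, and 34945 of the rest name 1 symbol, 932 several and 9160 none in the platform annotation, which can be old. Only the first kind was used for genes. The comparison of diets was a two-sided moderated test by limma 3.58.1 under R 4.3.3, with the variance prior following intensity, over 12735 genes and over 31526 probe sets, each above the lowest 30% by mean, with Benjamini-Hochberg adjustment at 0.05. The fit was tested on simulated independent genes with changes larger than the members' differences in the main fit. That test does not tell how often differences of the members' size would be called. Correlations used deviations from the diet mean and 576 exact permutations within diets. A list's level in an array is the mean deviation of its genes in within-diet SD units. The members, gene lists and tests were chosen with earlier results of these data known. Named genes are the members, up to 3 genes of smallest p in each list, and the genes nearest to the members' mean (5) or to a member (2). Promoter sequences are RefSeq's, and members on the minus strand were not printed. *Tsku*, *Podnl1*, *Xylt1*, *Fbn1*, *Plin1* and *Cfd*, which the lists also hold, were not analysed here.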

Additional observations from a re-analysis of the deposited data

How the results depend on the processing

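With 4 arrays on each diet, the 95% interval of every member included a difference of 1 SD higher on the collagen diet. A difference of 2 SD higher lay within those of *Dcn*, *Lum*, *Fmod*, *Aspn* and *Podn* alone. A difference of 1 SD lower lay within those of *Bgn*, *Ogn*, *Prelp*, *Omd* and *Podn* alone. No member had an adjusted p below 0.05 under any of the 20 alternatives run, which included no filter, other variance models and an adjusted p below 0.10; *Fmod* was not tested with the lowest 50% left out. Over all genes 1 was called with the lowest 50% by level left out, 1 at an adjusted p below 0.10 and 0 to 1 when single arrays were left out (1 without control replicate 1), against 0 otherwise. Over all probe sets 1 was called after quantile normalization, 1 after median centring, 3 at an adjusted p below 0.10 and 0 to 1 with single arrays left out (1 without collagen replicate 1). Same-numbered arrays of the diets correlated at -0.072 to 0.185 over the genes tested, highest for replicate 3. In either diet 1 of 4 arrays correlated best with its own number. Whether same-numbered arrays share a batch cannot be told from these values. With the replicate block 0 genes were called, 665 had an unadjusted p below 0.05, 7 members were higher and their median was 0.37 SD; *Lum* stood at 3.10 SD there and *Aspn* at 2.23 SD (adjusted p = 0.877 and 0.901 in limma).

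After quantile normalization 4 members were higher, and *Lum* (-0.32 SD) and *Fmod* (-0.07 SD) turned lower. Median centring turned *Dcn* (-0.09 SD) and *Ogn* (-0.05 SD), and array weights turned *Ogn* (-0.09 SD). Without both arrays low in skeletal muscle markers *Bgn* (0.25 SD) and *Omd* (0.18 SD) turned higher. Leaving out single arrays gave 5 to 9 members higher and medians of 0.08 to 0.81 SD, and turned *Bgn* without collagen replicate 1 (0.19 SD) or 4 (0.09 SD) or control replicate 3 (0.49 SD) or 4 (0.03 SD), with a range of -0.60 to 0.49 SD. It turned *Ogn* without collagen replicate 2 (-0.19 SD) or 3 (-0.26 SD) or control replicate 4 (-0.28 SD; range -0.28 to 0.57 SD), and *Omd* without collagen replicate 1 (0.07 SD) or control replicate 3 (0.80 SD) or 4 (0.05 SD; range -0.50 to 0.80 SD). *Podn* turned without collagen replicate 3 (-0.08 SD; range -0.08 to 1.15 SD) and *Prelp* with its second probe set 1416322_at (-0.63 SD). *Aspn* kept its direction in all 15 settings, at 1.48 to 3.40 SD with single arrays left out. The median r between members was 0.64 after quantile normalization, 0.62 after median centring, 0.58 without both arrays low in muscle markers, 0.26 as rho and 0.28 to 0.55 with single arrays left out. The median over all pairs of genes was at hand for the main setting alone. The higher values after rescaling therefore cannot be read as closer co-variation of the family. The cause of these changes was not tested.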
